A study of Mus musculus with 12 samples.

Results

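The circadian clock genes described here were the 10 genes Arntl, Clock, Npas2, Per1, Per2, Per3, Cry1, Nr1d1, Nr1d2 and Dbp, taken by gene symbol from a table of read counts for 43346 genes in 12 mouse liver libraries. Of these 10 genes, 9 passed the filter on low counts that kept 16283 genes for testing, and Npas2 did not. Livers came from mice on standard chow or on a diet high in fat, fructose and cholesterol (FFC), given for 24 weeks from 12 weeks of age. On each diet there were 3 libraries from S1pr1loxp/loxp;Lyz2-Cre/0 mice, called knockout below, and 3 from S1pr1loxp/loxp littermates without Cre, called wild type. All 12 libraries therefore carried the floxed allele of S1pr1, which encodes a cell-surface receptor of sphingosine 1-phosphate. The Cre of the knockout is driven by the Lyz2 gene, which is switched on in the myeloid lineage, while the RNA came from whole liver. The labels do not give the time of day at which tissue was taken, so an effect of that time and an effect of diet or genotype cannot be told apart in any comparison below.

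The mammalian clock is a feedback loop of transcription. The proteins of Arntl (also called Bmal1) and Clock, or its relative Npas2, pair up and switch on genes that carry E-box motifs, among them the Per and Cry genes, whose proteins later repress that pair. The nuclear receptors made from Nr1d1 and Nr1d2 (REV-ERB alpha and beta) repress Arntl through ROR elements, and Dbp, itself switched on through E-boxes, drives liver output genes through D-box motifs. In mouse liver the RNA of Arntl is known to peak at a time of day roughly opposite to that of Nr1d1 and Dbp, and feeding time is a strong cue for this clock.

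Several promoter sequences carried the motifs through which the loop is described to act, and they are shown because the members differ in which motif they hold. RefSeq promoter windows on the GRCm38.p6 build, from 250 bases before to 50 bases after a start site, matched 9 of the 10 genes in 13 windows, and Per2 had no entry. The motifs searched on both strands were the E-box CACGTG, its variant CACGTT, the D-box TTANGTAA, the ROR element TAGGTCA and the cAMP response element TGACGTCA, and none of the matches below overlapped another. Each sequence is written from 5′ to 3′ on the strand of the gene, and the capitals mark the motif matches. The Arntl stretch lies at chr7:113207530-113207559 on the plus strand, just downstream of the start, with its ROR element 31 bases after it.
Arntl: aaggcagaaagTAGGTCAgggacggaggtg
The Per1 stretch lies at chr11:69098743-69098828 on the plus strand, with an E-box 166 bases before the start.
Per1: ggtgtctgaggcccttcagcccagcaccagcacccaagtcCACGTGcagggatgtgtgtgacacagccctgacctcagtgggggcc
The Per3 stretch lies at chr4:151044776-151044910 on the minus strand, with D-boxes 205 and 158 bases before the start.
Per3: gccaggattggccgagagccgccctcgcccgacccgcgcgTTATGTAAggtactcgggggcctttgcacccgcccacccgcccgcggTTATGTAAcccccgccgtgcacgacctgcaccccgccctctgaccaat
The Cry1 stretch lies at chr10:85185069-85185173 on the minus strand, with the E-box variant 79 bases and the E-box 60 bases before the start. The variant reads AACGTG here because it lies on the opposite strand.
Cry1: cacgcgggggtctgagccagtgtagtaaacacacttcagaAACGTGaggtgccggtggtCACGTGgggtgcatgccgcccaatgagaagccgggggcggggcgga
The Nr1d1 stretch lies at chr11:98775378-98775445 on the minus strand, with the variant 28 bases before the start, also on the opposite strand. GENCODE M21 places the 5′ end of Nr1d1 at 98775333, downstream of this RefSeq start, so the distance holds for the RefSeq start only.
Nr1d1: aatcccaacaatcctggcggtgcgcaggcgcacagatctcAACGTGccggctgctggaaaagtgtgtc

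Among all 32851 promoter windows of the same length, 7.15% held the E-box, 4.68% the variant, 2.32% the D-box, 2.61% the ROR element and 1.79% the cAMP response element. Of the 13 windows of the clock genes, 2 held the E-box, 2 the variant, 1 the D-box and 1 the ROR element, and none held the cAMP response element. A missing match says only that these letters were not in these windows.

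Total counts ran from 18873092 to 31154930 per library. Between 20556 and 21308 genes had a read in each FFC library, and between 16008 and 19029 in each chow library. S1pr1 itself, in counts scaled to a common library size (CPM), ranged on chow from 27.3 to 44.4 (wild type) and from 28.2 to 41.5 (knockout), and on FFC from 29.1 to 39.3 (wild type) and from 35.3 to 38.9 (knockout). In edgeR's quasi-likelihood test its knockout against wild-type difference was 0.02 on the log2 scale on chow (SE 0.204, adjusted p = 0.971) and 0.11 on FFC (SE 0.202, adjusted p = 1). S1pr1 RNA in whole liver overlapped between the genotypes and so gave no check of the genotype labels. Of all libraries, knockout chow replicate 1 lay farthest along the second principal component, at -97.2 where the others ran from -10.1 to 40.2, and several values below are also given without it. Whether the 3 libraries of a group are 3 mice is not in the labels, and p-values measure only the spread between libraries, which may be technical.

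In CPM divided by gene length in kilobases (RPKM), the output factor Dbp had the highest mean over the 12 libraries, at 27.9, with libraries from 7.92 to 49.9. The receptors followed, Nr1d2 at 18.2 (12.2 to 25.0) and Nr1d1 at 11.8 (2.03 to 24.5). The repressors Per1 at 5.04 (1.90 to 10.2), Per2 at 4.45 (2.55 to 7.65) and Per3 at 3.53 (2.02 to 4.68) overlapped each other. The activator Clock averaged 2.40 RPKM (1.47 to 3.06) and the repressor Cry1 2.08 (0.815 to 3.34). Arntl was much lower at 0.574 RPKM (0.136 to 1.86), and Npas2 was close to undetected at 0.0181 (0 to 0.0837). Each neighbouring pair in this order had overlapping ranges over the libraries except Arntl and Npas2.

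**Figure D1:**
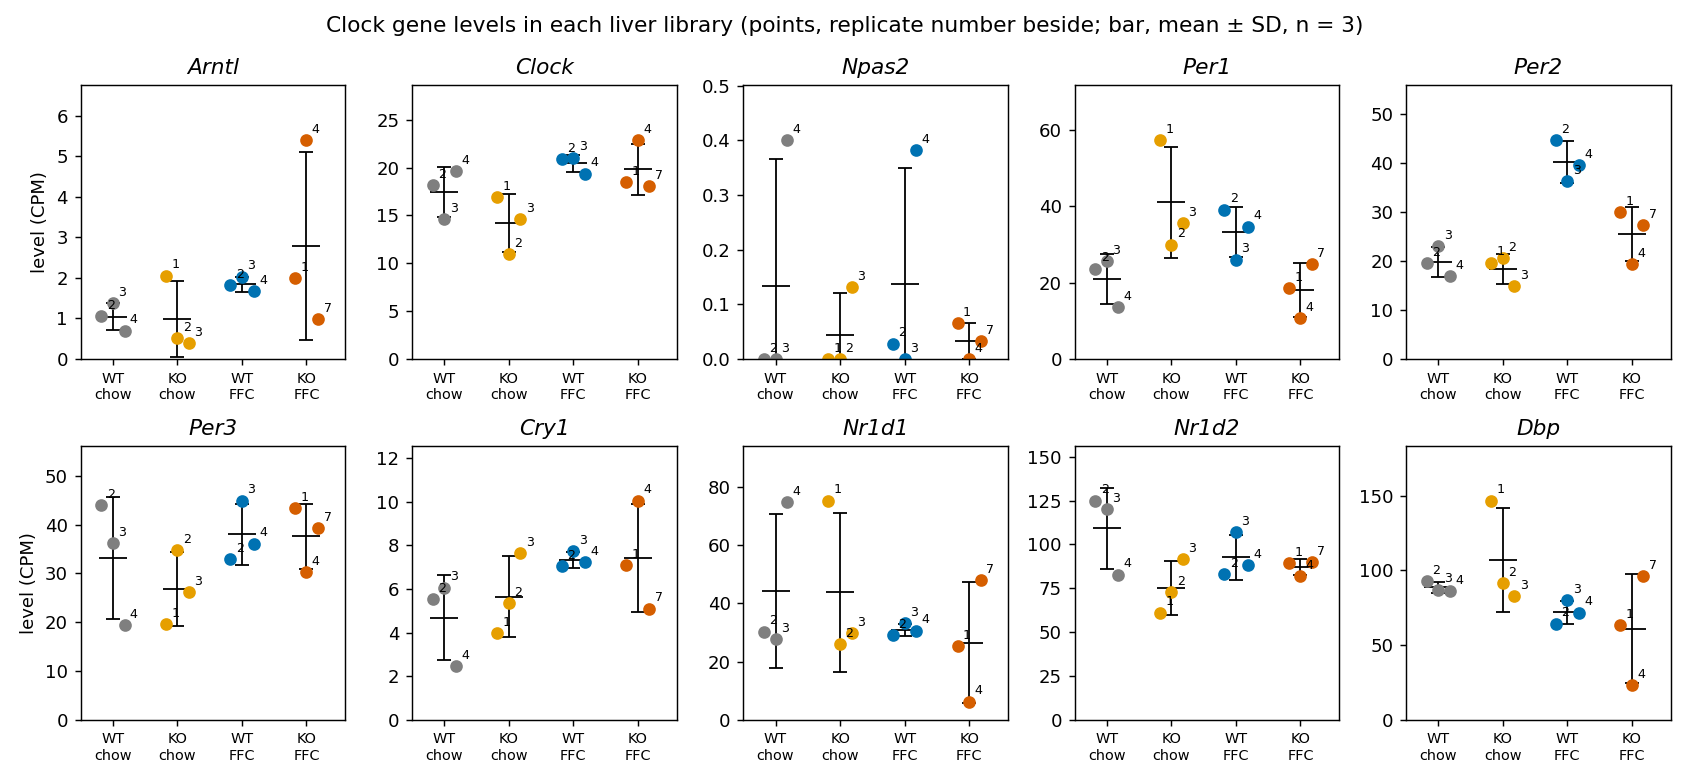
Levels of the clock genes in each of the 12 libraries, in CPM on linear axes from 0, by genotype (WT wild type, KO knockout) and diet, with points for libraries, replicate numbers beside them and bars for the group mean ± SD (n = 3). Per2 in wild-type FFC liver (36.4 to 44.8 CPM) sits above every other group. Nr1d1 spreads widely within the chow groups and in knockout FFC liver, and Arntl within the knockout groups.

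The activators differed in how well they were measured. On chow, Arntl was measured at 1.06, 1.37 and 0.702 CPM in the wild type (replicates 2, 3 and 4) and at 2.06, 0.510 and 0.395 CPM in the knockout (replicates 1, 2 and 3). On FFC it was measured at 1.83, 2.03 and 1.67 CPM in the wild type (replicates 2, 3 and 4) and at 1.99, 5.40 and 0.988 CPM in the knockout (replicates 1, 4 and 7). The wild-type FFC libraries lay close together above all wild-type chow libraries, whereas the knockout groups overlapped and each had 1 library far above the others. These levels rest on few reads, from 6 in knockout chow replicate 3, with an exact Poisson 95% interval of 2.20 to 13.1, to 160 in knockout FFC replicate 4, with an interval of 136 to 187, and such intervals cover counting error only. Clock had 215 to 798 reads per library and ranged from 10.96 CPM in knockout chow replicate 2 to 22.9 CPM in knockout FFC replicate 4. Npas2 had 0, 0 and 8 reads in wild-type chow, 0, 0 and 2 in knockout chow, 1, 0 and 13 in wild-type FFC and 2, 0 and 1 in knockout FFC libraries, in the order of their replicate numbers, so no change could be read from it at this depth.

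Feeding wild-type mice the FFC diet was compared with chow to see how the diet shifted the clock genes in livers with intact S1pr1. Per2, a repressor of the loop, rose: it reached 19.7, 23.0 and 16.9 CPM on chow and 44.8, 36.4 and 39.6 CPM on FFC. Every FFC library was above every chow library, and the group means were 19.9 ± 3.03 and 40.3 ± 4.26 CPM (SD, n = 3 each). The fitted change was 1.02 on the log2 scale (SE 0.201), a fold of 2.03, with an edgeR quasi-likelihood adjusted p of 0.00267. Per2 was the only one of the 9 tested clock genes called, against 16.8% of all tested genes called in this comparison and 8.76% called higher. With offsets for GC content and gene length, an alternative chosen after seeing the data, the change was 0.47 with an adjusted p of 0.0569 (5.4e-05 to 0.0569 over all 22 alternatives), and the median of all genes moved from 0.04 to -0.19, so that relative to that median Per2 stood at 0.97 without and 0.66 with the offsets.

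The other 8 tested clock genes did not pass the threshold between wild-type FFC and wild-type chow liver. Per1 was 23.7, 25.7 and 13.6 CPM on chow and 39.2, 26.1 and 34.7 CPM on FFC, groups that did not overlap but came within 1 CPM of each other, with a log2 change of 0.67 (SE 0.309, adjusted p = 0.156 by edgeR). Cry1, a partner of the PER proteins, was 5.52, 6.07 and 2.46 CPM on chow and 7.05, 7.75 and 7.22 CPM on FFC, again without overlap, with a log2 change of 0.65 (SE 0.340, adjusted p = 0.209 by edgeR). Dbp was lower in each FFC library, at 64.4, 79.9 and 71.8 CPM, than in any chow library, at 92.7, 87.2 and 85.9 CPM, with a log2 change of -0.30 (SE 0.361, adjusted p = 0.624 by edgeR). By total counts alone, without the TMM scaling, the Dbp groups would overlap. With Arntl at 0.82 (SE 0.628, adjusted p = 0.408 by edgeR), 5 of the 9 clock genes had groups that did not overlap, beside 45.1% of all tested genes. Clock, Per3, Nr1d1 and Nr1d2 had overlapping groups, with log2 changes of 0.23, 0.19, -0.52 and -0.24. The median log2 change of the 9 genes was 0.23, beside 0.04 over all tested genes.

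The same diet comparison in knockout mice showed a different gene past the threshold. Per1, a repressor that also responds quickly to hormones and cAMP, fell: it reached 57.5, 30.02 and 35.7 CPM on chow (replicates 1, 2 and 3) and 18.6, 10.7 and 24.9 CPM on FFC (replicates 1, 4 and 7). All FFC libraries lay below all chow libraries, with group means of 41.1 ± 14.5 and 18.1 ± 7.14 CPM (SD, n = 3 each). By total counts alone, without the TMM scaling, FFC replicate 7 would lie above chow replicate 2. The fitted change was -1.19 on the log2 scale (SE 0.311), a fold of 0.439, with an edgeR quasi-likelihood adjusted p of 0.0108. Per1 was the only one of the 9 tested clock genes called, against 26.5% of all tested genes called and 12.8% called lower. Without knockout chow replicate 1, the highest library, the change was -0.86 with an adjusted p of 0.0637, where its adjusted p over all 22 alternatives ran from 3.89e-06 to 0.0637.

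Among the clock genes that did not pass in the knockout diet comparison, Clock was the other gene whose groups did not overlap, so that 2 of 9 did not, beside 39.5% of all tested genes. Clock was 17.0, 10.96 and 14.6 CPM on chow and 18.5, 22.9 and 18.1 CPM on FFC, with a log2 change of 0.48 (SE 0.198, adjusted p = 0.0795 by edgeR), and without knockout chow replicate 1 it was 0.64 with an adjusted p of 0.0246. Per2 was 19.7, 20.6 and 14.9 CPM on chow and 30.1, 19.4 and 27.3 CPM on FFC, with replicate 4 inside the chow range, and its log2 change was 0.47 (SE 0.201, adjusted p = 0.0891 by edgeR). Arntl had the largest fitted change of the 9, 1.47, but also a wide error (SE 0.634, adjusted p = 0.0938 by edgeR), and without knockout chow replicate 1 it was 2.60 with an adjusted p of 0.0108. Without knockout FFC replicate 4 it was 0.58 with an adjusted p of 0.590, so the alternatives ran from 0.0108 to 0.590. Dbp changed by -0.81 (SE 0.363, adjusted p = 0.112 by edgeR), and it passed with DESeq2, at an adjusted p of 0.0479, and with limma-voom, at 0.0401 (0.000634 to 0.402 over all 22 alternatives). Nr1d1, Nr1d2, Per3 and Cry1 had log2 changes of -0.72, 0.21, 0.49 and 0.40, each with an adjusted p above 0.05. The value of Nr1d1 ran from -1.47 to -0.07 when single libraries were left out, and it passed without the filter on low counts (-0.69, adjusted p = 0.00899 by edgeR). With the replicate number as a block, Nr1d1 (-2.16, adjusted p = 0.00513 by edgeR) and Per3 (0.86, adjusted p = 0.0428 by edgeR) passed. Replicate number 7 occurs only in knockout FFC liver, so with this block that library, the highest of its group for Nr1d1, had no part in the change. The median over the 9 genes was 0.40, beside 0.09 over all tested genes.

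**Figure D2:**
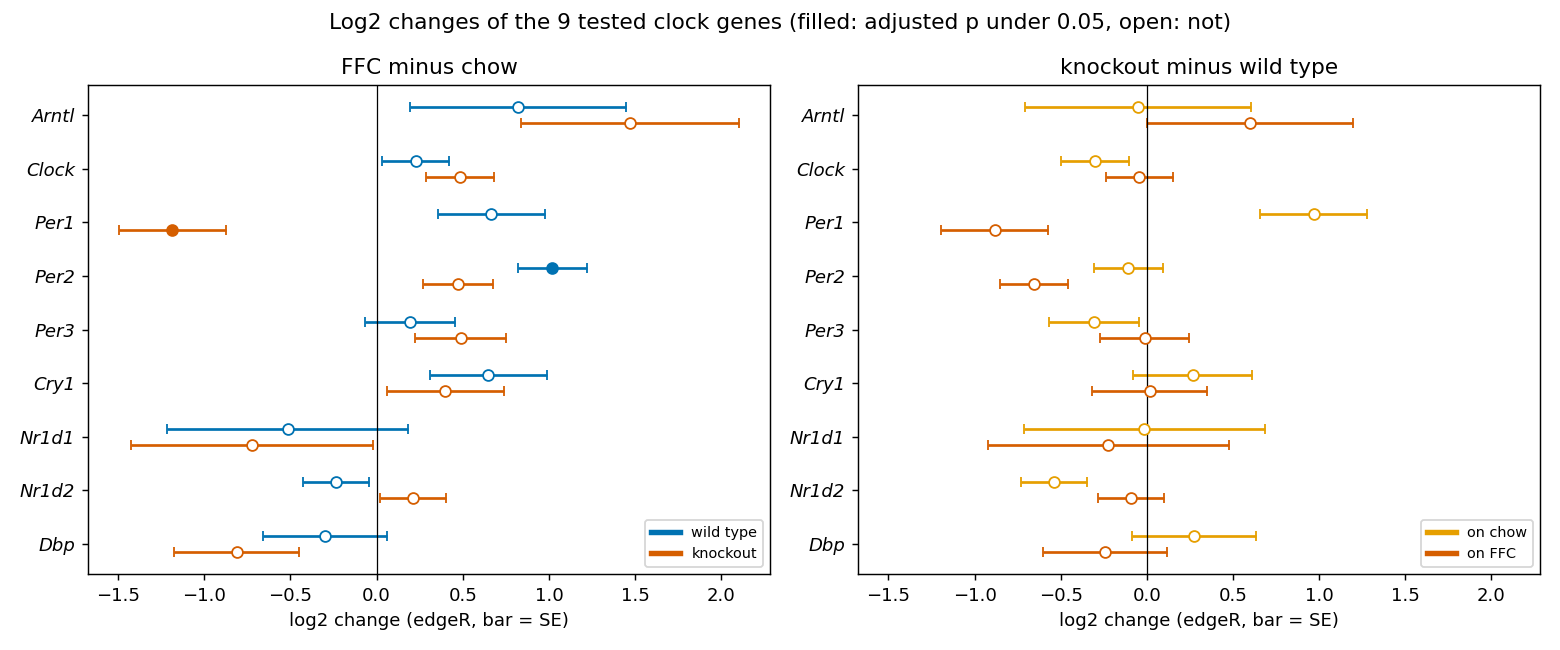
Log2 changes of the 9 tested clock genes in the 2 diet and 2 genotype comparisons, with bars of 1 standard error, filled where the edgeR adjusted p was under 0.05 and open where it was not. Per2 in the wild-type diet comparison (1.02) and Per1 in the knockout diet comparison (-1.19) are the filled points.

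Between genotypes on chow, edgeR's quasi-likelihood test called none of the 9 clock genes, beside 7.28% of all tested genes. At an unadjusted p under 0.05 there were 2, Per1 and Nr1d2, while DESeq2 called 1, Per1, and limma-voom called 0. Per1 was higher in each knockout chow library (30.02 to 57.5 CPM) than in any wild-type chow library (13.6 to 25.7 CPM), the single member of 9 without overlap, beside 20.6% of all tested genes. Its log2 difference was 0.97 (SE 0.311), with an adjusted p of 0.0654 in edgeR and 0.0258 in DESeq2, and without knockout chow replicate 1 it was 0.64 with an edgeR adjusted p of 0.252 (0.000923 to 0.268 over all 22 alternatives). Nr1d2, a heme-binding repressor like Nr1d1, was 125, 120 and 82.8 CPM in wild-type and 61.2, 72.9 and 91.8 CPM in knockout chow liver, with a log2 difference of -0.54 (SE 0.193, adjusted p = 0.0896 by edgeR). The ranges overlapped through wild-type replicate 4 and knockout replicate 3. Dbp, at a log2 difference of 0.27, turned to -0.03 without knockout chow replicate 1.

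Between genotypes on FFC, edgeR again called none of the 9, beside 0.0184% of all tested genes, and DESeq2 and limma-voom called 0 each. Per1 and Per2 were the 2 members at an unadjusted p under 0.05, and also the 2 of 9 whose groups did not overlap, beside 21.3% of all tested genes. Both were lower in the knockout. Per1 ran from 10.7 to 24.9 CPM in knockout and from 26.1 to 39.2 CPM in wild-type FFC liver, with a log2 difference of -0.88 (SE 0.309, adjusted p = 1 by edgeR). Per2 ran from 19.4 to 30.1 CPM in knockout and from 36.4 to 44.8 CPM in wild-type FFC liver, with a log2 difference of -0.65 (SE 0.198, adjusted p = 1 by edgeR). The other 7 had overlapping groups, with log2 differences from -0.24 for Dbp to 0.60 for Arntl.

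The test of whether the diet effect itself differed between genotypes passed the edgeR threshold for none of the 9 clock genes, beside 0.0491% of all tested genes. Per1 was the 1 member at an unadjusted p under 0.05. Its diet effect was 0.67 in wild type and -1.19 in knockout, a difference of -1.85 on the log2 scale (SE 0.438, adjusted p = 0.104 by edgeR), ranking 94 by p among the 16283 genes. The adjusted p was 0.00953 with DESeq2 and ran from 1.22e-06 to 0.278 over all 21 alternatives, and limma-voom called 0 members. With the GC and length offsets the wild-type diet effect of Per1 was 0.10 (adjusted p = 0.821 by edgeR) and the difference -1.23 (adjusted p = 0.193 by edgeR). Relative to the median of all genes, that diet effect was 0.62 without and 0.28 with the offsets, and the difference -1.88 and -1.19. The difference for Nr1d1, -0.21, turned to 0.44 without knockout chow replicate 1. The median of that difference was -0.21 over the 9 genes and 0.03 over all tested genes. A diet and a genotype comparison always share a group of libraries, so their values are set side by side and not counted as separate evidence.

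Within groups, the libraries differed from one another more for some clock genes than for most genes of like level. Nr1d1 had a within-group SD of 0.94 on the log2 CPM scale, at the 99.4 percentile of 500 genes of like level, whose median SD was 0.23. Dbp followed at 0.58 (97.0 percentile), Per1 at 0.49 (96.4 percentile) and Per3 at 0.41 (93.6 percentile). Arntl at 0.87 and Cry1 at 0.49 were nearer to genes of like level, at the 82.0 and 80.6 percentiles. Per2, Nr1d2 and Clock, at SDs of 0.25, 0.24 and 0.22, lay at the 53.0, 58.8 and 28.0 percentiles. These percentiles describe the 12 libraries and are no test.

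The wide spread came from particular libraries. On chow, Nr1d1 was 30.2, 27.6 and 74.8 CPM in the wild type (replicates 2, 3 and 4) and 75.3, 26.0 and 29.8 CPM in the knockout (replicates 1, 2 and 3). On FFC it was 29.1, 33.1 and 30.6 CPM in the wild type but 25.3, 6.25 and 47.9 CPM in the knockout (replicates 1, 4 and 7). Thus wild-type chow replicate 4 and knockout chow replicate 1 stood at more than 2 times their group mates, and knockout FFC replicate 4 far below its own. Dbp in knockout FFC liver took the same order as Nr1d1, at 63.3, 23.3 and 96.2 CPM. The ratio of the highest to the lowest library, with a median over the 9 genes of 1.23 in wild-type FFC liver (1.09 to 1.5), had medians of 1.89 in wild-type chow (1.08 to 2.71), 1.77 in knockout chow (1.38 to 5.21) and 1.97 in knockout FFC liver (1.10 to 7.67).

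Knockout FFC replicate 4 was the highest of its group for the activators Arntl and Clock and for Cry1, and the lowest for Per1, Per2, Per3, Nr1d1, Nr1d2 and Dbp. Replicate 7 of the same group had nearly the reverse, highest for Per1, Nr1d1, Nr1d2 and Dbp and lowest for Arntl, Clock and Cry1. For Nr1d2 (89.2 and 89.9 CPM) and Clock (18.5 and 18.1 CPM), replicates 1 and 7 of that group were nearly tied. Wild-type chow replicate 4 was lowest for 7 of the 9, with Clock and Nr1d1 as its highest. Knockout chow replicate 1 was highest for Arntl, Clock, Per1, Nr1d1 and Dbp and lowest for Per3, Cry1 and Nr1d2. The 3 wild-type FFC libraries, which varied least, had no library that combined high activators with low Nr1d1 and Dbp. Without knockout FFC replicate 4, the knockout diet effect of Per2 was 0.64 with an edgeR adjusted p of 0.0420, and without replicate 7 that of Dbp was -1.30 with an adjusted p of 0.0122 and that of Arntl 1.88 with an adjusted p of 0.0431.

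**Figure D3:**
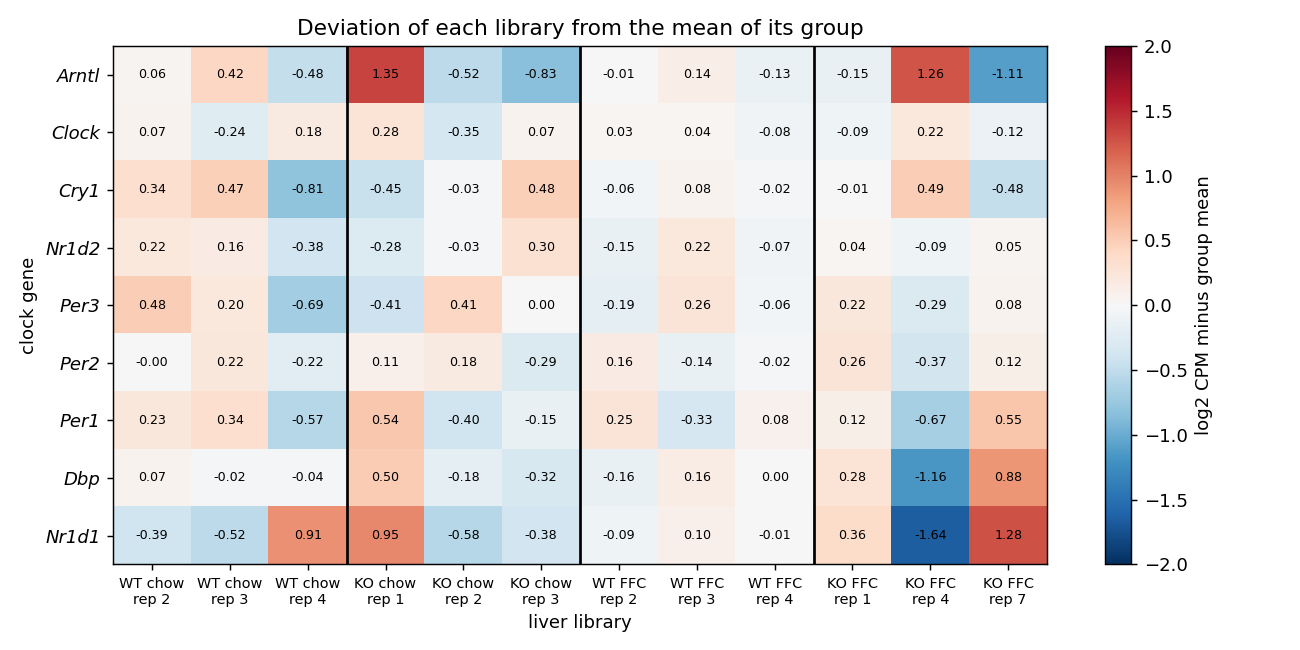
Deviation of each library from its group mean, in log2 CPM, for the 9 tested clock genes (rows) in the 12 libraries (columns). Knockout FFC replicate 4 is high for Arntl, Clock and Cry1 and low for the other 6 genes, and the wild-type FFC columns are the palest.

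The ratio of Nr1d1 to Arntl in RPKM, a repressor over its target, put the libraries on 1 scale that does not depend on total depth. On chow it was 27.0, 19 and 101 in the wild type and 34.5, 48.1 and 71.3 in the knockout, in the order of the replicate numbers. On FFC it was 15.0, 15.4 and 17.3 in the wild type and 12.0, 1.09 and 45.8 in the knockout. Every wild-type FFC library was below every chow library, while the knockout FFC group ran from the lowest value of all 12 to one inside the chow range. The ratio of Dbp to Arntl ran in the same way from 4.26 in knockout FFC replicate 4 to 207 in knockout chow replicate 3. The ratio of Per2 to Per1 on chow ran from 0.329 to 0.661 (knockout) and from 0.798 to 1.20 (wild type), and on FFC from 1.05 to 1.75 (knockout) and from 1.10 to 1.34 (wild type), so that all knockout chow libraries were below all others. These ratios were chosen after the values were seen and carry no test, and those over Arntl carry its counting error.

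**Figure D4:**
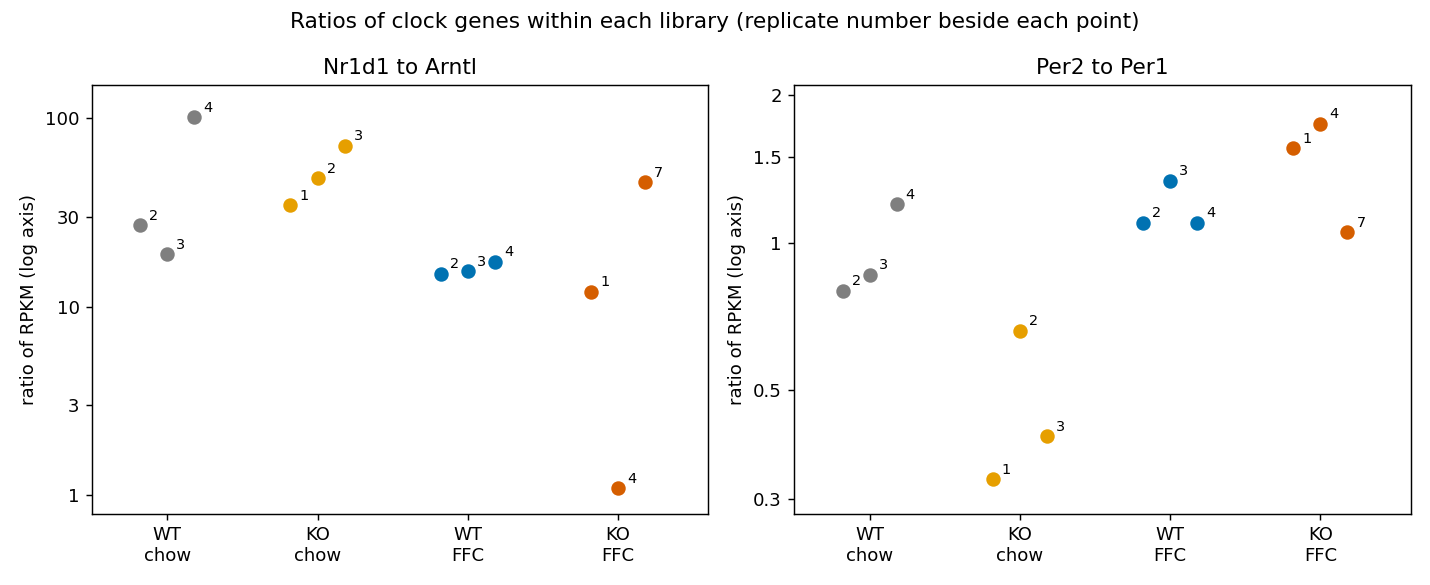
Ratios of RPKM in each library, Nr1d1 over Arntl on the left and Per2 over Per1 on the right, both on log axes, by group. Knockout FFC libraries run from 1.09 to 45.8 on the left, and knockout chow libraries (0.329 to 0.661) are lowest on the right.

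Of 17 further clock genes, 16 were tested, and Rorb was at 0 in every library. Wild-type FFC liver had 1 of the 16 higher and none lower, beside 16.8% of all tested genes called, Csnk1e, a kinase that acts on PER proteins, at a log2 change of 1.04 (SE 0.311, adjusted p = 0.0300 by edgeR). Knockout FFC liver had 3 higher and none lower, beside 26.5% of all tested genes called: Csnk1e at 0.98, Fbxl21, a ubiquitin ligase part that acts on CRY proteins, at 0.88, and Arntl2, a relative of Arntl, at 2.60. Arntl2 rested on 0 to 44 reads per library. The median log2 change of the 16 was 0.07 in wild type and 0.30 in knockout, beside 0.04 and 0.09 over all tested genes. By edgeR's adjusted p none of the 16 was called between genotypes on chow (3 at an unadjusted p under 0.05, 1 with DESeq2, 0 with limma-voom), between genotypes on FFC (1, 0 and 0) or in the difference of the diet effects (2, 0 and 0). The repressor Ciart, an E-box target, was not called in any comparison, and in knockout FFC replicates 1, 4 and 7, at 10.4, 2.36 and 27.2 CPM, it took the order of Nr1d1 and Dbp. In the wild type on chow (replicates 2, 3 and 4) it was 32.4, 21.4 and 6.17 CPM, lowest where Nr1d1 was highest, and in the knockout on chow (replicates 1, 2 and 3) it was 20.1, 18.3 and 25.2 CPM, where Nr1d1 was highest in replicate 1.

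Of 16 genes long described as outputs of the liver clock, the FFC diet in wild-type liver raised 1, Slc45a3, at 1.13, and lowered 2, Cyp2a5 at -1.81 and Upp2 at -1.37. These 3 calls of 16 stand beside 16.8% of all tested genes called, and the 3 in knockout liver beside 26.5%. In knockout liver the diet lowered 3, Por at -1.46, Pnpla2 at -0.74 and Upp2 at -1.25, and raised none. The median of the 16 was 0.17 in wild type and -0.44 in knockout. Por, which passes electrons to cytochrome P450 enzymes, also differed on chow, at 790, 939 and 880 CPM in knockout and 445, 417 and 151 CPM in wild-type libraries, a log2 difference of 1.36 (SE 0.338, adjusted p = 0.0303 by edgeR). Slc45a3 was the other of 2 output genes called higher in knockout chow liver, at 1.19 (SE 0.255, adjusted p = 0.0197 by edgeR). These 2 calls of 16 stand beside 7.28% of all tested genes called. By edgeR's adjusted p none of the 16 was called between genotypes on FFC (2 at an unadjusted p under 0.05, 0 with DESeq2 and with limma-voom) or in the difference of the diet effects (5 unadjusted, 1 with DESeq2, 0 with limma-voom).

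Genes of fasting, insulin and glucocorticoid action, which also act on the liver clock, were followed beside the clock genes. In wild-type FFC liver 2 of 10 were higher, Sgk1 at 1.17 and Pdk4 at 1.97, and none lower, beside 16.8% of all tested genes called. In knockout FFC liver 1 was higher, Pdk4 at 1.32, and 3 were lower, among them Fkbp5 at -1.33 and Tsc22d3 at -0.99, beside 26.5% of all tested genes called. Sgk1, called in wild type, was at 0.02 in knockout liver (adjusted p = 0.919 by edgeR). The median of the 10 was 0.83 in wild type and -0.30 in knockout. In the difference of the diet effects edgeR called none of the 10 (3 at an unadjusted p under 0.05, 3 with DESeq2, 0 with limma-voom), and between genotypes on FFC also none (2, 0 and 0). Between genotypes on chow edgeR called 1 of the 10, higher in the knockout (3 unadjusted, 3 with DESeq2, 1 with limma-voom), beside 7.28% of all tested genes. Fkbp5 was 65.8, 52.6 and 90.2 CPM in knockout chow liver (replicates 1, 2 and 3). In knockout FFC liver it was 30.3, 33.1 and 19.4 CPM (replicates 1, 4 and 7). In the wild type it was 36.8, 40.4 and 21.05 CPM on chow and 75.8, 24.9 and 80.95 CPM on FFC (replicates 2, 3 and 4). Per1 was also high in knockout chow liver, but its highest library there was replicate 1. In knockout FFC liver Per1 was highest in replicate 7, where Fkbp5 was lowest. Of 7 genes that respond to body temperature, wild-type FFC liver had Hsp90aa1 at 0.90 and Hsph1 at 1.18 higher and Cirbp at -0.92 lower. These calls stand beside 16.8% of all tested genes called. Knockout FFC liver had none of the 7 called by edgeR, beside 26.5% (1 at an unadjusted p under 0.05, 0 with DESeq2 and with limma-voom). The median of the 7 was 0.33 in wild type and -0.09 in knockout, and edgeR called none of them between genotypes on chow (0 unadjusted, with DESeq2 or with limma-voom), between genotypes on FFC (2, 0 and 0) or in the difference of the diet effects (1, 0 and 0). The part of feeding, hormones or temperature in the clock gene values was not tested.

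Cell type markers moved with diet in the same libraries. The counts of diet calls below stand beside 16.8% (wild type) and 26.5% (knockout) of all tested genes called. Of 8 hepatocyte markers, 6 were lower with FFC in wild-type and 8 in knockout liver, and their summed level ran from 129700 to 208600 CPM over the chow libraries and from 66180 to 103600 CPM over the FFC libraries. All 8 macrophage markers were higher with FFC in both genotypes, with sums of 265 to 477 CPM on chow and 624 to 870 CPM on FFC. Of 7 stellate cell markers, 6 were higher in wild-type and 3 in knockout FFC liver, and of 6 endothelial markers 5 and 4 were. Of 6 T and B cell markers 0 and 1 were, with sums of 2.30 to 5.99 CPM over all libraries. Between genotypes edgeR called 1 of these 35 markers on chow, a stellate cell marker, beside 7.28% of all tested genes. On FFC it called 0 of the 35, beside 0.0184%. In whole liver a smaller share of a cell type and less RNA per cell cannot be told apart, and the part of these shifts in the Per2 and Per1 diet effects was not tested.

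Dbp and Nr1d1 each share exon sequence with a gene on the opposite strand, and whether reads were counted by strand is not given in the sources used here. Dbp shares 539 of its 2993 exon bases with Sphk2, a kinase that makes sphingosine 1-phosphate, and Nr1d1 shares 263 of 3077 with the thyroid hormone receptor gene Thra. Sphk2 was 56.9 ± 2.08 CPM in wild-type chow, 82.8 ± 20.9 in knockout chow, 47.2 ± 4.47 in wild-type FFC and 45.6 ± 11.7 in knockout FFC liver (SD, n = 3 each). Its knockout diet effect was -0.86 (SE 0.209, adjusted p = 0.00656 by edgeR). With the strand of counting not given, reads from the shared bases cannot be assigned to 1 gene, and their part in the Dbp values was not tested. Thra was highest on chow in wild-type replicate 4, at 14.0 CPM (7.73 and 10.8 in the others), and in knockout replicate 1, at 14.7 CPM (6.52 and 8.89 in the others), and it was lowest in knockout FFC replicate 4, at 4.02 CPM, where the next lowest was 9.76 CPM. These are the libraries in which Nr1d1 stood apart in the same directions. The part of reads from the bases shared with Thra in the Nr1d1 values was not tested either.

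The genes whose deviations from the group means most resembled those of Arntl over the 12 libraries, among the 10076 tested genes whose mean log2 CPM reached 2, were Siah2 (Pearson r = 0.940), Gatm (0.939), Gm17134 (0.937), Inafm2 (0.931) and Med10 (0.929). Those most like Dbp were Slc5a6 (0.948), Tenc1 (0.923), Fam193a (0.917), Pdk2 (0.898) and Cyp2u1 (0.890). These are the highest of many values, they share libraries and depth, and they are given as a description with no p. Slc5a6 was 29.9, 16.4 and 40.8 CPM in knockout FFC replicates 1, 4 and 7, the same order as Dbp, and Siah2 was 7.07, 12.2 and 6.75 CPM there, the same order as Arntl.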

How the data were processed

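mRNA libraries were made from whole-liver RNA, per the labels' protocols. Per the series design text, paired-end reads were aligned to mm10 with TopHat 2.1.0 and the authors counted reads per Ensembl gene with featureCounts 1.4.6. The deposited values are raw counts for 43346 genes in 12 libraries, with totals of 18873092 to 31154930 counts, and all columns matched a sample label. The design text also names edgeR 3.18.1, which was not the source of any value here.

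From the deposited counts, edgeR 4.0.16 in R 4.3.3 fitted 1 robust quasi-likelihood model to 4 groups of 3 libraries after filterByExpr and TMM scaling, with Benjamini-Hochberg adjustment over 16283 genes and a threshold of 0.05, for 5 comparisons. Standard errors are the log2 change over the square root of the F statistic. CPM used TMM library sizes, and RPKM also the deposited gene lengths. Alternatives were median-ratio scaling, other filters, DESeq2 1.42.0, limma 3.58.1 (voom), a replicate block, fewer groups, each library left out, thinning, and offsets for GC content and length (GC known for 99.06% of tested genes). The script was tested on simulated data. Groups came from genotype and diet labels. The members and lists were chosen with earlier results of these data known. All clock genes were named in every comparison, along with up to 4 called genes of each other list and the 5 genes most like Arntl and Dbp. Ciart, Sphk2, Thra and the ratios were added after their values were seen. Named promoter sequences came from RefSeq on GRCm38.p6 and exon overlaps from GENCODE M21. The values of 1 gene of the feeding and hormone list are not reported here.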

Additional observations from a re-analysis of the deposited data

Results flagged for a closer look

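Per1 was singled out because its diet effects had opposite directions in the genotypes with no overlap between the groups of either. Every wild-type FFC library (26.1 to 39.2 CPM) was above every wild-type chow library (13.6 to 25.7 CPM), and every knockout FFC library (10.7 to 24.9 CPM) was below every knockout chow library (30.02 to 57.5 CPM). By total counts alone, without the TMM scaling, the knockout groups would overlap. The difference of the diet effects was -1.85 on the log2 scale (SE 0.438). It was tested directly and did not pass in edgeR's quasi-likelihood test (adjusted p = 0.104), while DESeq2 gave an adjusted p of 0.00953 and limma-voom called 0 members. With offsets for GC content and length the difference was -1.23 (adjusted p = 0.193 by edgeR), and the wild-type diet effect of Per1 was 0.10 in place of 0.67. Relative to the median of all genes, that effect was 0.28 with the offsets in place of 0.62.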

How the results depend on the processing

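Over 45 log2 changes of the 9 tested clock genes and 981 alternative values, 902 kept direction and side of the threshold, 2 lost the call, 27 gained it and 50 changed sign. The causes were not tested. Without a filter on low counts the clock genes called numbered 2 and 4 in the wild-type and knockout diet comparisons and 1 in each of the other 3. DESeq2 called 2 in the knockout diet comparison and 1 each in the chow genotype comparison and the difference of the diet effects, and limma-voom called 2 in the knockout diet comparison. Replicate numbers did not pair the libraries (correlations of same-numbered deviations from -0.124 to 0.090). Number 7 occurs only in knockout FFC liver, so a block by number takes that library out of every comparison. With the replicate block, the calls were 2 (wild-type diet), 4 (knockout diet), 1 (FFC genotype) and 2 (difference), and over all genes it called 183 in place of 1185 on chow, 14 in place of 3 on FFC and 396 in place of 8 for the difference. GC and length offsets, added after seeing the data, left 0 calls in the wild-type diet comparison. Over all genes they called 4045 in place of 2734 in the wild-type and 4917 in place of 4312 in the knockout diet comparison. Between genotypes they called 707 in place of 1185 on chow and 4 in place of 3 on FFC, and for the difference 3 in place of 8. Leaving out each library gave 1 to 1, 1 to 3, 0 to 1 and 0 to 1 calls in the wild-type diet, knockout diet, chow genotype and difference comparisons.

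Sign changed with the offsets for Clock (-0.022) and Per3 (-0.34) in the wild-type diet comparison, Clock (-0.13), Per3 (-0.039) and Nr1d2 (-0.30) in the knockout diet comparison, and Arntl (0.22), Clock (0.10) and Dbp (-0.26) between genotypes on chow. It also changed for Per3 (0.14) on FFC and for Clock (-0.10), Nr1d1 (0.26) and Dbp (0.085) in the difference. Relative to the median of all genes, Clock in the wild-type diet comparison kept its sign, at 0.183 without and 0.163 with the offsets. So did Clock (0.392 and 0.078) and Per3 (0.397 and 0.165) in the knockout diet comparison. The other sign changes with the offsets remained relative to that median. With the replicate block the sign changed for Dbp on chow (-0.15), Per3 (0.23) and Nr1d2 (0.12) on FFC and Cry1 in the difference (0.30). On chow, Arntl changed with thinning (0.12) and Nr1d1 with median-ratio scaling (0.022) and DESeq2 (0.021). On FFC, Cry1 changed with the authors' filter (-0.001), limma-voom (-0.041) and quality weights (-0.093), and Per3 with quality weights (0.045).

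Leaving out single libraries moved signs within these ranges. In the wild-type diet comparison, Per3 ran from -0.077 to 0.44 and Nr1d1 from -0.77 to 0.097. On chow, Arntl ran from -1.18 to 0.35, Per2 from -0.21 to 0.056, Cry1 from -0.044 to 0.51, Nr1d1 from -0.67 to 0.59 and Dbp from -0.025 to 0.47. On FFC, Arntl ran from -0.31 to 1.00, Clock from -0.16 to 0.017, Per3 from -0.13 to 0.13, Cry1 from -0.27 to 0.23, Nr1d1 from -0.97 to 0.24, Nr1d2 from -0.17 to 0.023 and Dbp from -0.73 to 0.15. In the difference, Arntl ran from -0.25 to 1.78, Cry1 from -0.53 to 0.06 and Nr1d1 from -0.95 to 0.44. Low Arntl and Npas2 counts limit what depth can show.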
